A study of Arabidopsis thaliana with 54 samples.

Results

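Fatty acid desaturases put double bonds into the acyl chains of membrane lipids. The 8 genes described here were taken from a list of Arabidopsis gene identifiers, and all 8 were found among the 36632 genes of the count table. They are the acyl-CoA desaturase-like genes ADS1 (AT1G06080) and ADS2 (AT2G31360), the related plastid gene FAD5 (AT3G15850), the endoplasmic reticulum genes FAD2 (AT3G12120) and FAD3 (AT2G29980), and the plastid genes FAD6 (AT4G30950), FAD7 (AT3G11170) and FAD8 (AT5G05580). Their transcripts were measured by RNA sequencing of whole rosettes of the Arabidopsis thaliana accession Col-0 during the first day at 4 °C. All 8 genes passed the filter on low counts, which kept 20720 genes (56.6% of the table).

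The study had 3 conditions, sampled before transfer to the cold (0 h) and 2, 4, 6, 12 or 24 h into it, which makes 18 groups of 3 libraries. Plants of C28P met the cold for the first time at 28 days of age, and plants of C35P for the first time at 35 days. Plants of C28PLT had been primed at 28 days with 3 days at 4 °C, were returned to warm long days for a 7 day lag phase, and were then moved to 4 °C for a second time. C35P is the study's developmental control for the week of the lag phase. The 3 days of priming are not part of that week, so C28PLT plants were older than C35P plants by those 3 days when they met the cold again. All plants were wild type and were grown in the same way until 28 days. Each library pooled homogenized material of 5 samples, and the 3 libraries of a group came from 3 independent experiments. Before transfer the plants had a 16 h day at 200 µmol quanta per square metre and second, and in the cold a 16 h day at 90 µmol. Light fell with temperature, and the times from 2 to 12 h differ from 0 h in the time of day, with no warm library at those times. For those times cold, light and time of day cannot be told apart, and at 24 h cold and light cannot.

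Library totals ran from 23408399 to 34452480 counts. Over the libraries the median count was 20284 for ADS2, 9879 for FAD5, between 4919 and 7177.5 for FAD2, FAD3, FAD6 and FAD7, 1097.5 for FAD8 and 178 for ADS1. ADS1 was thus the member with the least depth behind its values, with 52 to 390 counts per library. The summed level of 5 leaf markers was 53730 to 116800 CPM (a gene's counts relative to the TMM-scaled total of its library), while the highest summed level in any library was 0.167 CPM for root hair markers, 2.20 CPM for seed markers and 6.88 CPM for floral markers. One library stood apart before the cold in the genes named next. The C28P 0 h library of experiment 1 had 646 CPM of ADS2 against 80.1 and 84.0 CPM in the other libraries of its group. It also had 77.2 CPM of the clock gene PRR5 against 0.949 and 1.14 CPM, and 71.6 CPM of CBF3, a transcription factor of the cold response, against 1.02 and 4.14 CPM. Over all genes tested its median absolute log2 gap to the mean of the other 2 libraries was 0.528. Over all libraries this gap ran from 0.211 to 0.606. Member calls that change without this library are named. The C28P changes of other lipid genes include it and are not given without it.

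As background, plants build unsaturated membrane lipids along a pair of routes. In the plastid, FAD5 makes the first double bond in palmitate on a galactolipid, FAD6 makes the second double bond, and FAD7 and FAD8 make the omega-3 double bond, with electrons from ferredoxin. In the endoplasmic reticulum, FAD2 turns oleate into linoleate and FAD3 turns linoleate into alpha-linolenate, with electrons from cytochrome b5. ADS1, ADS2 and FAD5 belong to a family related to the acyl-CoA desaturases of animals and yeast, and ADS2 is known in Arabidopsis for a role in chilling and freezing tolerance. FAD8 is known as the omega-3 desaturase of the plastid whose activity depends on growth temperature. Desaturation keeps membranes fluid as temperature falls.

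On the RefSeq genome TAIR10.1, ADS1 lies at chr1:1843463-1846311 (plus strand), ADS2 at chr2:13371658-13374018 (minus), FAD5 at chr3:5358601-5361185 (plus), FAD2 at chr3:3860251-3863250 (minus), FAD3 at chr2:12781524-12785190 (minus), FAD6 at chr4:15056975-15059846 (minus), FAD7 at chr3:3499537-3502452 (plus) and FAD8 at chr5:1664040-1666531 (plus). FAD8 overlaps AT5G05590 on the opposite strand, and that gene had at most 334 counts in a library. The other 7 members overlap no annotated gene. The coding sequences of ADS1 and ADS2 were 78.1% identical and those of FAD7 and FAD8 84.4%. The longest stretch that the coding sequences of ADS1 and ADS2 share is shown, and it crosses an exon junction in both genes. FAD7 and FAD8 share a longer identical run, of 87 exon bases. A read that lies wholly inside such a run could come from either gene of the pair. The sources used here do not say how reads that map to both members of a pair were counted.
ADS1 and ADS2, 29 bases: attcagggagatccgattgattgggtgag

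The first comparison asks how each desaturase transcript moved during the first day at 4 °C, against the 0 h plants of the same condition. ADS2 rose most: it went from 30.7 to 87.8 CPM at 0 h, in all libraries but the one that stood apart, to 1325 to 2182 CPM at 6 h, and was lower again at 24 h. FAD5 reached its lowest level at 12 h. FAD2 and FAD7 were lowest at 24 h, and FAD3 was higher at 6 h. ADS1, FAD6 and FAD8 passed the test at no time, and FAD6 only under other settings given with its values. In all, 26 of the 120 tests of the 8 genes were called, 15 higher and 11 lower than 0 h, at an adjusted p under 0.05 by the edgeR quasi-likelihood test over all genes. ADS2 gave 13 of them, FAD5 and FAD7 4 each, FAD2 3 and FAD3 2.

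In C28P 7 of 40 tests were called (4 higher, 3 lower), in C35P 10 (5 and 5) and in C28PLT 9 (6 and 3). Without the C28P 0 h library of experiment 1 the count in C28P was 10. The same rule over all genes tested gives the background, listed in the order of the 5 cold times. In C28P it called 0.391, 7.92, 18.1, 21.2 and 29.1% of all genes, of which 0.183, 4.03, 8.38, 10.7 and 13.9% were higher and 0.208, 3.88, 9.71, 10.5 and 15.3% lower. In C35P it called 1.96, 10.3, 17.5, 25.1 and 28.8%, of which 1.42, 5.65, 8.92, 12.6 and 14.7% were higher and 0.541, 4.61, 8.57, 12.5 and 14% lower. In C28PLT it called 2.78, 12.7, 17.9, 26.6 and 25.9%, of which 2.22, 7.51, 9.7, 14.1 and 14.6% were higher and 0.555, 5.22, 8.22, 12.5 and 11.3% lower. All these percentages have the 20720 genes tested as their denominator. At 2 h ADS2 was the only member called, in C35P and C28PLT, where few genes were called. At 24 h 25.9 to 29.1% of all genes were called, and of the 24 tests of members in the 3 conditions 9 were called.

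**Figure D1:**
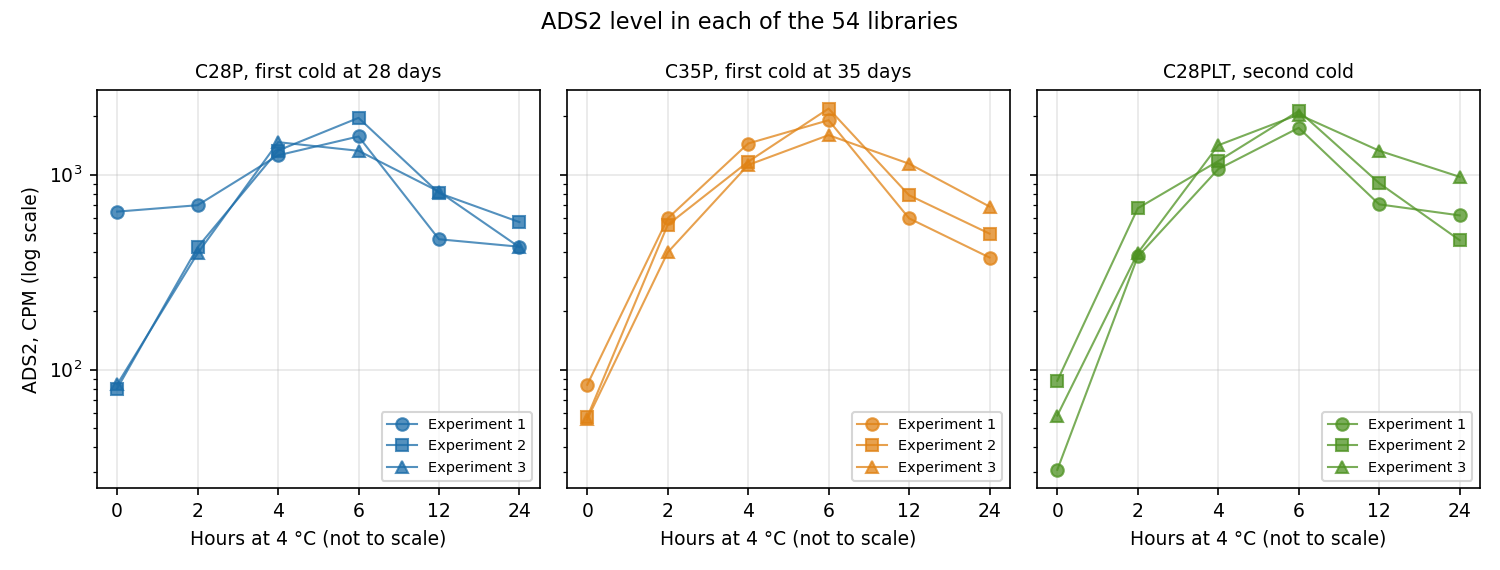
ADS2 level in CPM on a log axis against hours at 4 °C (not to scale), 1 panel per condition and 1 line per independent experiment. The lines peak at 6 h in 8 of 9 time courses, and the C28P line of experiment 1 starts at 646 CPM while the other 8 start between 30.7 and 87.8 CPM.

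ADS2 was described first because it had the widest range, from 30.7 to 2182 CPM over the 54 libraries. In C35P it stood at 83.7, 57.1 and 55.7 CPM at 0 h in experiments 1, 2 and 3, at 596, 553 and 399 CPM at 2 h, and at 1445, 1165 and 1121 CPM at 4 h. It reached 1902, 2182 and 1595 CPM at 6 h, then stood at 597, 784 and 1138 CPM at 12 h and 376, 498 and 686 CPM at 24 h. No cold library of C35P overlapped the range at 0 h. The log2 fold change against 0 h was 2.98 at 2 h (SE 0.444, adjusted p = 0.00016), 4.25 at 4 h (adjusted p = 3.06e-07), 4.85 at 6 h (28.9-fold, adjusted p = 7.93e-09), 3.68 at 12 h (adjusted p = 3.39e-07) and 2.99 at 24 h (adjusted p = 8.09e-06).

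In the primed plants of C28PLT, ADS2 stood at 30.7, 87.8 and 58.2 CPM at 0 h, after the warm lag phase. It stood at 381, 672 and 397 CPM at 2 h, 1068, 1174 and 1415 CPM at 4 h, and 1738, 2120 and 2033 CPM at 6 h. At 12 h it stood at 704, 904 and 1327 CPM, and at 24 h at 618, 461 and 975 CPM. Every cold library was above every 0 h library. The log2 fold change was 3.04 at 2 h (SE 0.444, adjusted p = 9.88e-05), 4.37 at 4 h (adjusted p = 1.43e-07), 5.06 at 6 h (33.3-fold, adjusted p = 4.46e-09), 4.05 at 12 h (adjusted p = 7.48e-08) and 3.54 at 24 h (adjusted p = 6.51e-07). The 10 calls of ADS2 in C35P and C28PLT held when any one of their libraries was left out.

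In C28P the 0 h values of ADS2 were 646, 80.1 and 84.0 CPM. It stood at 697, 424 and 395 CPM at 2 h, 1257, 1330 and 1468 CPM at 4 h, 1570, 1955 and 1325 CPM at 6 h, 466, 804 and 818 CPM at 12 h, and 427, 571 and 425 CPM at 24 h. The 4 h and 6 h libraries were above all 3 of the 0 h libraries, and the ranges at 2, 12 and 24 h overlapped the range at 0 h through the library of experiment 1. With all libraries the log2 fold change was 0.90 at 2 h (SE 0.443, adjusted p = 0.412), 2.32 at 4 h (adjusted p = 0.000912), 2.58 at 6 h (adjusted p = 0.000112), 1.37 at 12 h (adjusted p = 0.0255) and 0.81 at 24 h (adjusted p = 0.17). Without the C28P 0 h library of experiment 1 it was 2.62 (adjusted p = 3.78e-05), 4.04 (adjusted p = 5.13e-09), 4.30 (adjusted p = 9.29e-10), 3.09 (adjusted p = 2.42e-07) and 2.53 (adjusted p = 4.28e-06) at the same times, and 3.05, 11.5, 25.8, 24.6 and 33.6% of all genes were then called. The call at 12 h with all libraries was lost without the 0 h library of experiment 2 (log2 fold change 0.93) or 3 (0.95) or the 12 h library of experiment 2 (1.25) or 3 (1.24), with adjusted p up to 0.185. It was also lost with only the conditions compared in the fit (1.36, adjusted p = 0.115).

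After its peak ADS2 fell in all 3 conditions. This comparison of 24 h with 6 h was added after the values were seen, and 10.6, 9.63 and 13.6% of all genes were called in it in C28P, C35P and C28PLT (5.65, 5.11 and 6.46% lower). ADS2 was lower at 24 h than at 6 h by log2 fold changes of -1.77 in C28P (SE 0.443, adjusted p = 0.00805), -1.86 in C35P (adjusted p = 0.00575) and -1.52 in C28PLT (adjusted p = 0.0193), with no overlap of the libraries in any condition. The C28P call was lost when only the conditions compared were fitted (-1.76, adjusted p = 0.0745). In C28PLT the call was lost without the 24 h library of experiment 1 (-1.45, adjusted p = 0.0834) or 2 (-1.30, adjusted p = 0.0862).

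The sequence before the start of ADS2 is shown because this gene moved most. The first window is the 100 bases next to the annotated start (chr2:13374019-13374118, minus strand). The second lies farther upstream (chr2:13374719-13374858, minus strand), and its capitals mark the 2 places that match CCGAC, the core of the element that CBF transcription factors are known to bind, on either strand. They begin 720 and 813 bases upstream of the start. Of 27437 promoters, 37.4% hold CCGAC on either strand within 1000 bases, and 3 of the 8 members do (ADS2, FAD6 and FAD7). Within 250 bases no member holds CCGAC, which 12.0% of all promoters hold there. The same is true, on either strand, of the evening element AAAATATCT (2.36% of promoters), of the CCA1-binding site AAAAATCT (6.69%), of the G-box CACGTG (6.49%) and of the CGCG box (10.1%). These matches describe letters and no binding was measured.
ADS2, next to the start: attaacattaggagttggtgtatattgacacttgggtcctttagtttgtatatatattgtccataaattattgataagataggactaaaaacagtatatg
ADS2, farther upstream: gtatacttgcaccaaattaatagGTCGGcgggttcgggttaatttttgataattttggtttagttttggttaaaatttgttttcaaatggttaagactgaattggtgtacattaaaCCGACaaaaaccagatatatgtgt

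ADS1, the closest relative of ADS2 by sequence, stayed low. It stood at 5.76, 8.47 and 5.52 CPM at 0 h in C28P, 15.5, 3.30 and 4.88 CPM in C35P, and 5.66, 10.6 and 2.22 CPM in C28PLT. At 24 h the values were 6.51, 6.90 and 3.82 CPM, 3.67, 5.01 and 7.55 CPM, and 9.02, 6.06 and 2.93 CPM. The libraries of 0 h and 24 h overlapped in every condition. None of its 15 tests against 0 h was called (lowest adjusted p 0.459), with log2 fold changes from -0.56 to 0.40 and 95% intervals within -1.59 to 1.42. ADS1 varied between libraries more than the other members (biological coefficient of variation 0.425).

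**Figure D2:**
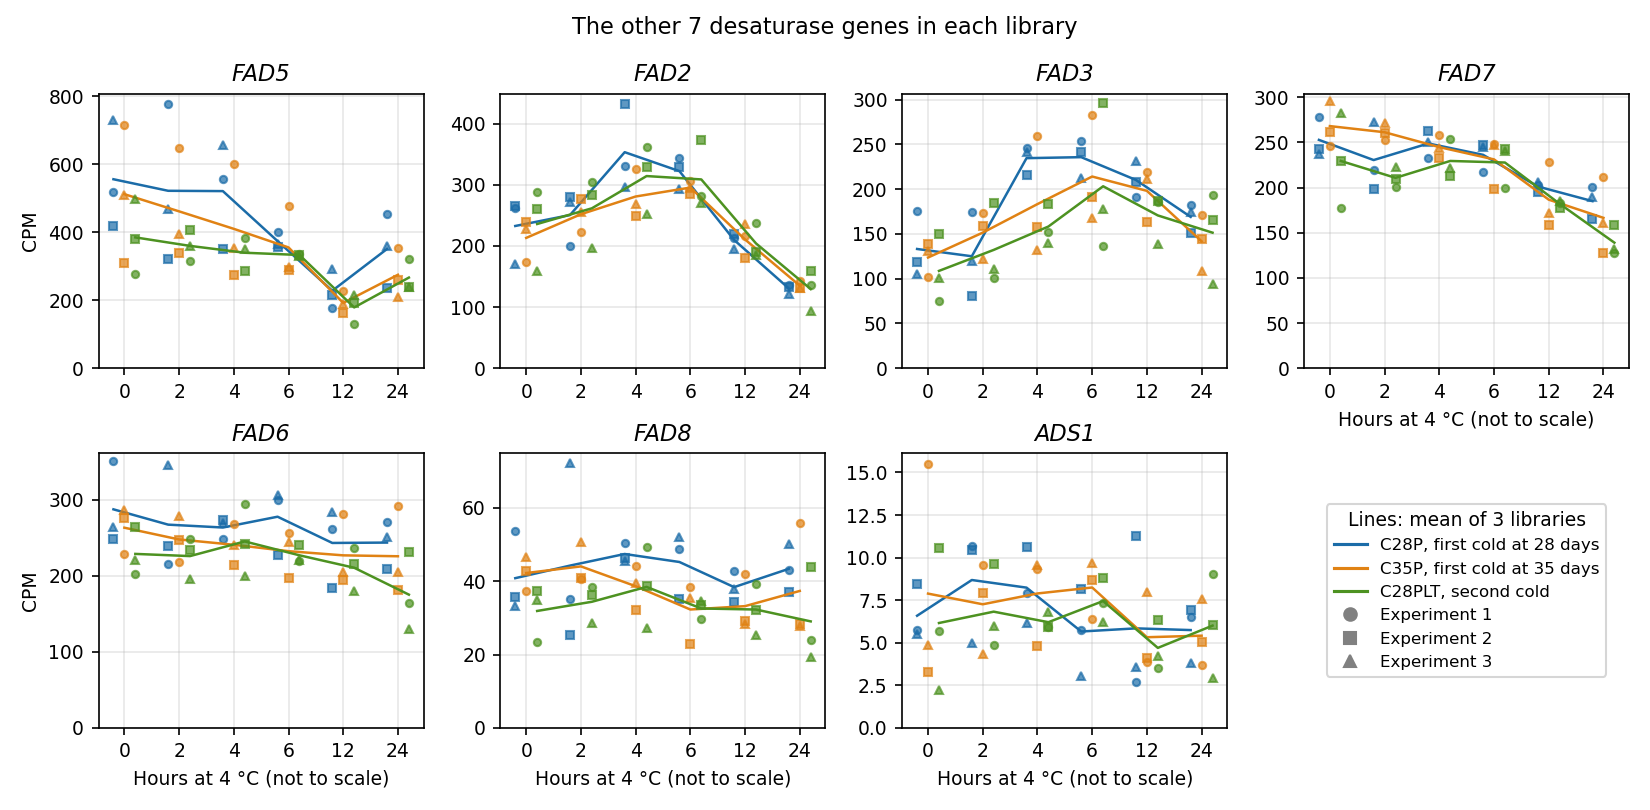
Levels of the other 7 members in CPM on linear axes from 0 against hours at 4 °C (not to scale), 1 panel per gene, with 1 point per library (colour for condition, shape for experiment) and lines through the means of 3 libraries. FAD5 dips at 12 h, FAD2 falls from a high at 4 or 6 h to its lowest values at 24 h, and FAD7 is lowest at 24 h in all 9 time courses.

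FAD5, which starts desaturation of palmitate in the plastid, fell to its lowest level at 12 h in all 9 time courses, to between 0.318 and 0.520 of the 0 h library of the same experiment. In C28P it stood at 517, 420 and 732 CPM at 0 h and at 177, 215 and 293 CPM at 12 h. In C35P it stood at 716, 310 and 511 CPM at 0 h and at 228, 161 and 188 CPM at 12 h. In C28PLT it stood at 278, 379 and 497 CPM at 0 h and at 131, 191 and 215 CPM at 12 h. The 0 h and 12 h libraries did not overlap in any condition.

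The log2 fold change of FAD5 at 12 h was -1.29 in C28P (SE 0.323, adjusted p = 0.00368), -1.41 in C35P (adjusted p = 0.00114) and -1.10 in C28PLT (adjusted p = 0.00974). In C28PLT the call was lost without the 12 h library of experiment 1 (-0.92, adjusted p = 0.077) or the 0 h library of experiment 3 (-0.89, adjusted p = 0.0692). By 24 h FAD5 had moved back toward the level at 0 h, to 455, 237 and 361 CPM in C28P, 355, 261 and 210 CPM in C35P and 320, 240 and 240 CPM in C28PLT. Against 0 h the log2 fold change at 24 h was -0.66 in C28P (adjusted p = 0.12), -0.90 in C35P (adjusted p = 0.0339) and -0.53 in C28PLT (adjusted p = 0.239). With a block for each experiment within a condition the C28P value was called (-0.68, adjusted p = 0.0192). In all, 2 of 8 alternative settings called it (adjusted p up to 0.166). The C35P call was lost without the 0 h library of experiment 1 (-0.59, adjusted p = 0.245) or 3 (-0.90, adjusted p = 0.0689) or the 24 h library of experiment 2 (-0.86, adjusted p = 0.0852) or 3 (-0.73, adjusted p = 0.141). It was also lost with only the conditions compared in the fit (-0.91, adjusted p = 0.0632).

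FAD2, the oleate desaturase of the endoplasmic reticulum, had its highest value at 4 h in 4 time courses and at 6 h in 5, and its lowest value at 24 h in all 9. In C28P it stood at 261, 265 and 171 CPM at 0 h, 331, 432 and 296 CPM at 4 h, 344, 330 and 293 CPM at 6 h, and 136, 134 and 122 CPM at 24 h. In C35P it stood at 174, 239 and 227 CPM at 0 h, 306, 286 and 295 CPM at 6 h, and 143, 131 and 131 CPM at 24 h. In C28PLT it stood at 288, 261 and 159 CPM at 0 h, 282, 373 and 271 CPM at 6 h, and 136, 159 and 92.8 CPM at 24 h. The 24 h libraries lay below all 0 h libraries in C28P and C35P, and in C28PLT the library of experiment 2 at 24 h overlapped that of experiment 3 at 0 h.

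Against 0 h, FAD2 was lower at 24 h by log2 fold changes of -0.83 in C28P (SE 0.213, adjusted p = 0.003), -0.66 in C35P (adjusted p = 0.0177) and -0.87 in C28PLT (adjusted p = 0.00219). The C35P call was lost without the 0 h library of experiment 2 (-0.57, adjusted p = 0.0652) or 3 (-0.61, adjusted p = 0.0603) or the 24 h library of experiment 2 (-0.64, adjusted p = 0.05) or 3 (-0.64, adjusted p = 0.0513). At 4 and 6 h the log2 fold changes were 0.39 to 0.60 and none was called. With the experiment as a block, that of C28P at 4 h was called (0.61, adjusted p = 0.0365 against 0.0767 without the block). With a block for each experiment within a condition, the values at 6 h were called in C28P (0.48, adjusted p = 0.0286) and C35P (0.47, adjusted p = 0.0348) too. Most of the 8 alternative settings did not call these rises. The C28P value at 6 h was called in 1 of 8 and went down to 0.15 (adjusted p up to 0.603). That of C35P at 6 h was called in 1 of 8 and went down to 0.28 (adjusted p up to 0.313). That of C28P at 4 h was called in 3 of 8 and went down to 0.41 (adjusted p up to 0.174). From 6 h to 24 h, in the comparison added after the values were seen, FAD2 fell by 1.30 on the log2 scale in C28P (adjusted p = 5.81e-05), by 1.13 in C35P (adjusted p = 0.000438) and by 1.25 in C28PLT (adjusted p = 8.34e-05). The 24 h library held 0.343 to 0.483 of the 6 h library of the same experiment in the 9 time courses.

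A window upstream of FAD2 (chr3:3863691-3863780, minus strand) is shown because FAD2 was the only member with an evening element or a G-box within 1000 bases. The capitals mark the G-box CACGTG, 501 bases upstream, and the reverse complement of the evening element AAAATATCT, 462 bases upstream. Both are known in plants as elements of genes with daily rhythms. Of all promoters 14.8% hold CACGTG and 7.24% hold AAAATATCT, on either strand, within 1000 bases.
FAD2, upstream: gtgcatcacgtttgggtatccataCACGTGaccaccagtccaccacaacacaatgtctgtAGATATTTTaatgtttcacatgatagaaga

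FAD3, the linoleate desaturase that acts after FAD2 in the endoplasmic reticulum, was higher at 6 h than at 0 h in all 9 time courses, by 1.29 to 2.77 times. In C28P it stood at 175, 119 and 106 CPM at 0 h and at 254, 241 and 212 CPM at 6 h. In C35P it stood at 102, 138 and 130 CPM at 0 h and at 283, 192 and 168 CPM at 6 h. In C28PLT it stood at 75.4, 150 (150.01) and 101 CPM at 0 h and at 136, 296 and 178 CPM at 6 h. The libraries did not overlap in C28P and C35P, and in C28PLT the lowest 6 h library was below the highest 0 h library.

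The log2 fold change of FAD3 at 6 h was 0.82 in C28P (SE 0.295, adjusted p = 0.0473), 0.79 in C35P (adjusted p = 0.059) and 0.90 in C28PLT (adjusted p = 0.0277). The C35P value was called with the experiment as a block (0.76, adjusted p = 0.0473), as was that of C28P at 4 h (0.84, adjusted p = 0.0478 against 0.0861 without the block). Of the 8 alternative settings, 5 called the C35P value at 6 h (adjusted p up to 0.0801) and 3 that of C28P at 4 h (up to 0.113). With a block for each experiment within a condition, FAD3 was also called at 12 h in C28P (0.69, adjusted p = 0.0241), C35P (0.66, adjusted p = 0.0297) and C28PLT (0.69, adjusted p = 0.0219). Without the C28P 0 h library of experiment 1 the C28P values were 1.07 at 4 h (adjusted p = 0.0308), 1.07 at 6 h (adjusted p = 0.0166) and 0.91 at 12 h (adjusted p = 0.0421). The C28P call at 6 h was lost without any one of the 5 other libraries: the 0 h libraries of experiments 2 (0.75, adjusted p = 0.157) and 3 (0.69, adjusted p = 0.216) and the 6 h libraries of experiments 1, 2 and 3 (0.77, 0.81 and 0.90, adjusted p = 0.133, 0.0801 and 0.071). The C28PLT call was lost without the 0 h library of experiment 1 (0.70, adjusted p = 0.17) or 3 (0.84, adjusted p = 0.0976) or the 6 h library of experiment 2 (0.53, adjusted p = 0.305). Other settings lost calls at 6 h too. That of C28P was lost with RLE scaling (0.80, adjusted p = 0.057) and with no filter (0.83, adjusted p = 0.0623). That of C28PLT was lost with only the conditions compared in the fit (0.90, adjusted p = 0.0871). At 24 h FAD3 stood at 94.5 to 194 CPM, and no 24 h value was called.

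FAD6, the plastid counterpart of FAD2, passed the test at no time in the fit used here. It stood at 351, 248 and 264 CPM at 0 h in C28P, 228, 275 and 286 CPM in C35P and 202, 264 and 220 CPM in C28PLT. At 24 h it stood at 271, 209 and 251 CPM, 291, 181 and 204 CPM, and 164, 232 and 130 CPM. The ranges overlapped in each condition. None of its 15 tests was called (lowest adjusted p 0.192), and the 95% intervals of its log2 fold changes lay within -0.818 to 0.533. Other settings lowered its p: in C28PLT at 24 h FAD6 was called lower with a length and GC offset (-0.54, adjusted p = 0.00795), with that offset and the replicate block (adjusted p = 0.00264), and without the C28PLT 24 h library of experiment 2 (-0.64, adjusted p = 0.0432). With offset and block it was also called lower in C35P at 12 h (-0.36, adjusted p = 0.0464) and 24 h (-0.38, adjusted p = 0.0303).

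FAD7 and FAD8 encode the plastid omega-3 desaturases. FAD7 was lowest at 24 h in all 9 time courses, at 0.467 to 0.859 of the 0 h library of the same experiment. It went from 278, 243 and 237 CPM at 0 h to 200, 165 and 190 CPM at 24 h in C28P, from 247, 262 and 296 CPM to 212, 128 and 160 CPM in C35P, and from 177, 229 and 282 CPM to 127, 158 and 132 CPM in C28PLT. The 24 h libraries lay below all 0 h libraries in each condition. The log2 fold change was -0.45 in C28P (SE 0.167, adjusted p = 0.0388), -0.69 in C35P (adjusted p = 0.00188) and -0.72 in C28PLT (adjusted p = 0.00114). The C28P call was lost without the 0 h library of experiment 1 (-0.37, adjusted p = 0.117) or 2 (-0.48, adjusted p = 0.0641) or the 24 h library of experiment 1 (-0.51, adjusted p = 0.0511), 2 (-0.37, adjusted p = 0.151) or 3 (-0.47, adjusted p = 0.0724). It was also lost with no filter (-0.45, adjusted p = 0.098) and with only the conditions compared in the fit (-0.45, adjusted p = 0.069).

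At 12 h FAD7 was called lower in C35P, at 229, 159 and 172 CPM, with a log2 fold change of -0.52 (adjusted p = 0.0181). That call was lost without the 12 h library of experiment 2 (-0.42, adjusted p = 0.117) or 3 (-0.47, adjusted p = 0.0755) or the 0 h library of experiment 3 (-0.45, adjusted p = 0.0905). It was also lost with no filter (adjusted p = 0.0536) and with only the conditions compared in the fit (adjusted p = 0.0645). In C28PLT FAD7 was called lower at 12 h with the length and GC offset (-0.46, adjusted p = 0.021), and that the conditions differ is not shown. From 6 h to 24 h, the comparison added later, FAD7 fell in C28PLT (-0.71, adjusted p = 0.00304). The same difference was -0.35 in C28P (adjusted p = 0.192) and -0.47 in C35P (adjusted p = 0.0662, and 0.0495 with the experiment as a block). Of the 8 alternative settings 6 called the C35P value (adjusted p up to 0.161).

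FAD8 stood at 53.8, 35.6 and 33.1 CPM at 0 h in C28P, 37.3, 42.9 and 46.5 CPM in C35P and 23.3, 37.4 and 35.0 CPM in C28PLT. At 24 h the values were 43.1, 37.0 and 50.2 CPM, 55.9, 28.4 and 27.8 CPM, and 24.1, 43.8 and 19.2 CPM. The 0 h and 24 h libraries overlapped in every condition and the time of the highest value differed between time courses. None of the 15 tests was called (lowest adjusted p 0.441), and the 95% intervals of the log2 fold change lay within -0.993 to 0.876.

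**Figure D3:**
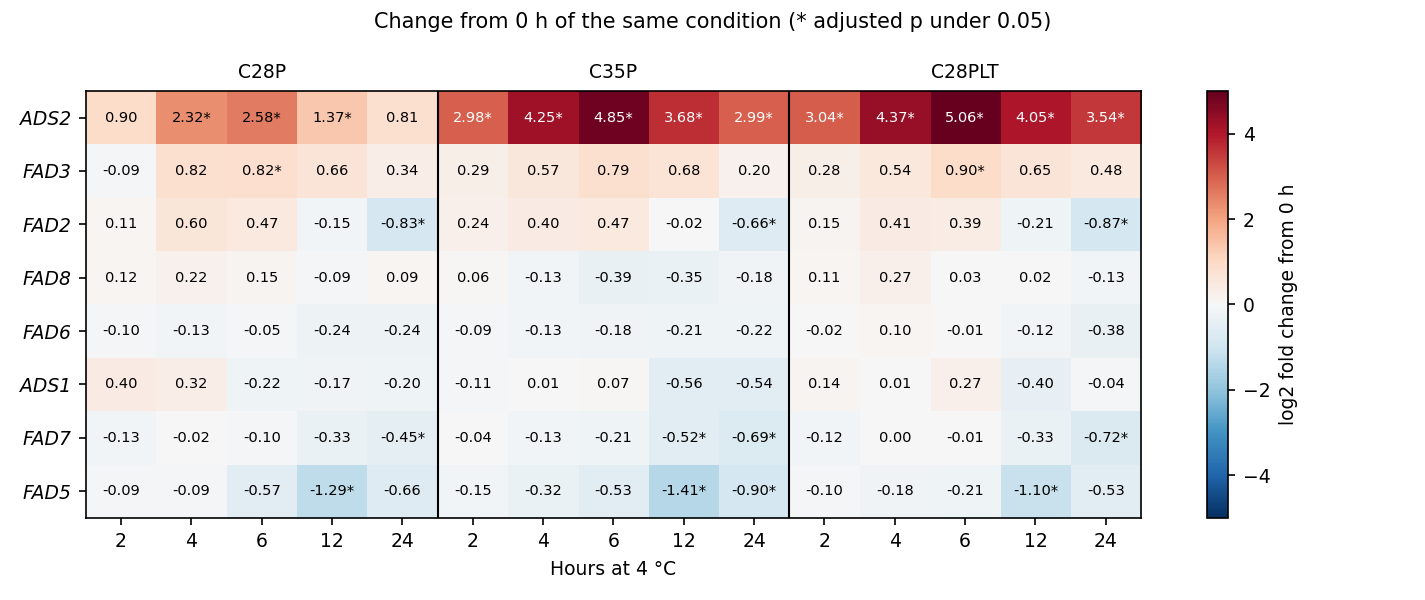
Heat map of the log2 fold change against 0 h of the same condition, with 1 row per member and 1 column per condition and time, the value in each cell and a star where the adjusted p was under 0.05. ADS2 reaches 5.06 in C28PLT and 4.85 in C35P at 6 h, and the rows of ADS1, FAD6 and FAD8 hold no star.

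Levels of different genes were compared per kb of annotated exon. Before the cold FAD5 had the highest mean of the 8 in all 3 conditions, and from 2 h on ADS2 had the highest mean in all 15 groups. At 0 h ADS2 had rank 3 in C28P and rank 6 in C35P and C28PLT. Without the C28P library of experiment 1, where ADS2 stood at 375 CPM per kb against 46.5 and 48.8, it had rank 6 in C28P too. FAD8 had rank 7 and ADS1 rank 8 in all 18 groups. FAD6 always had rank 2 or 3, and most neighbours in the middle of the order overlapped in their libraries, so that their order was not fixed. The libraries of ADS2 and FAD5 also overlapped at 2 h in all 3 conditions, and at 0 h and 24 h in C28P. The overlap at 0 h came from the library of experiment 1, where ADS2 had rank 1.

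The summed level of the 8 genes at 0 h was 942 ± 256 CPM per kb in C28P, 781 ± 87.7 in C35P and 663 ± 104 in C28PLT (SD, n = 3). At 6 h it was 1705 ± 173, 1799 ± 189 and 1822 ± 192 CPM per kb. At 24 h it was 871 ± 57.4, 819 ± 61.0 and 868 ± 73.6 CPM per kb. The share of ADS2 in this sum was 14.2% ± 14.2, 4.85% ± 0.862 and 4.99% ± 1.84 at 0 h in C28P, C35P and C28PLT. It was 54.7% ± 5.29, 61.0% ± 5.79 and 62.6% ± 1.58 at 6 h, and 31.9% ± 7.39, 37.1% ± 11.2 and 45.1% ± 13.7 at 24 h. The gain of the sum at 6 h was thus mostly ADS2 transcript, in the means. The C28P values at 0 h include the library of experiment 1, where ADS2 made up 30.6% of the sum, against 6.35% and 5.63% in experiments 2 and 3. Without it the C28P mean at 0 h was 799 CPM per kb for the sum and 5.99% for the share.

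**Figure D4:**
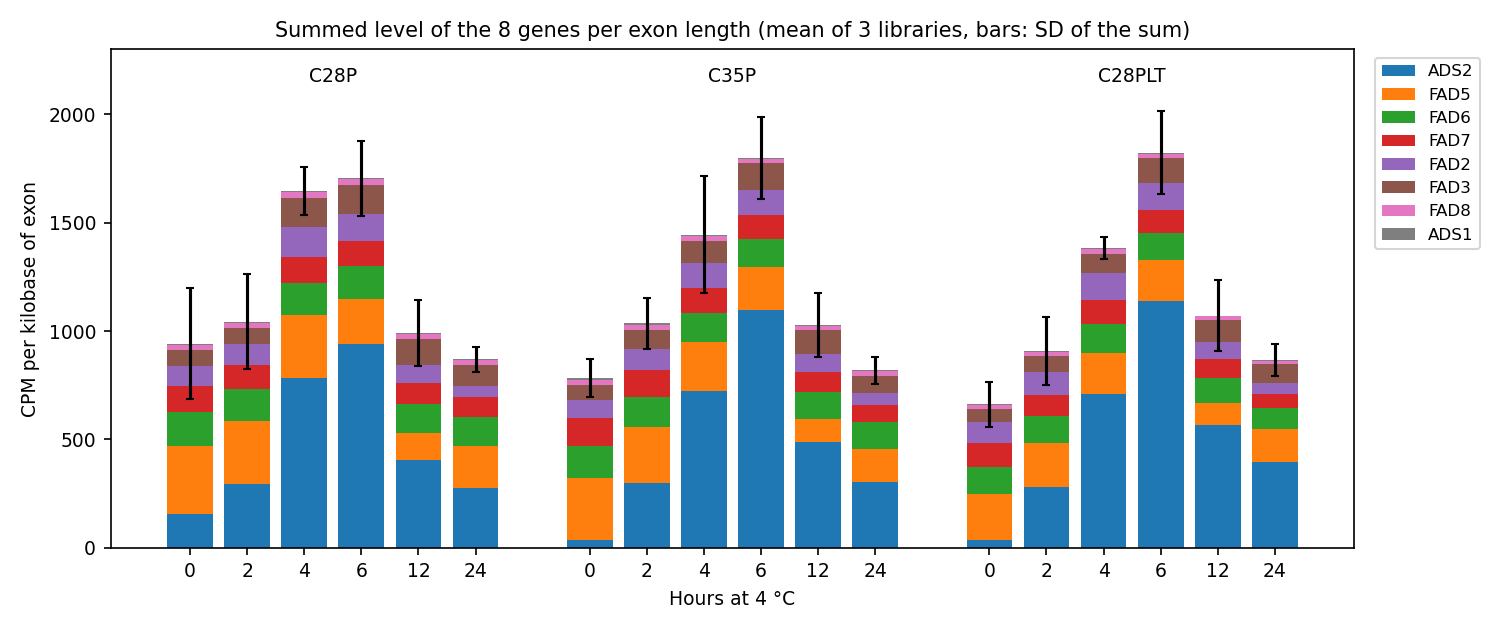
Stacked bars of the mean level of the 8 members in CPM per kb of exon at each time, grouped by condition, with the SD of the sum over 3 libraries as error bars. The sum is highest at 6 h, when ADS2 makes up 54.7 to 62.6% of it.

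The second comparison asks whether the desaturases differed between primed plants meeting the cold again and the developmental control meeting it for the first time. At equal times, none of the 48 tests of C28PLT against C35P was called. The log2 differences lay between -0.41 and 0.40, their 95% intervals between -1.38 and 1.29, and the lowest adjusted p was 0.818. For ADS2 the differences lay between -0.15 and 0.40 and the intervals between -1.05 and 1.29. A change of ADS2 by more than 2-fold in either direction would lie within these bounds. Of all genes, 0.00483% (1 gene) was called at 0 h and 0% at the later times by edgeR, with 752 genes at an unadjusted p under 0.05 at 0 h and 114 to 669 later. DESeq2 called 49 genes at 0 h and 0 later.

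The difference between the responses of C28PLT and C35P, each against its own 0 h, lay between -0.21 and 0.55 on the log2 scale over the 40 tests, with 95% intervals between -1.46 and 1.95. None was called (lowest adjusted p 0.967) and none had an unadjusted p under 0.05. No gene at all was called by edgeR in these comparisons, with 289 to 623 at an unadjusted p under 0.05, and DESeq2 called 0 to 9. Failing these tests does not show that the responses were equal.

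**Figure D5:**
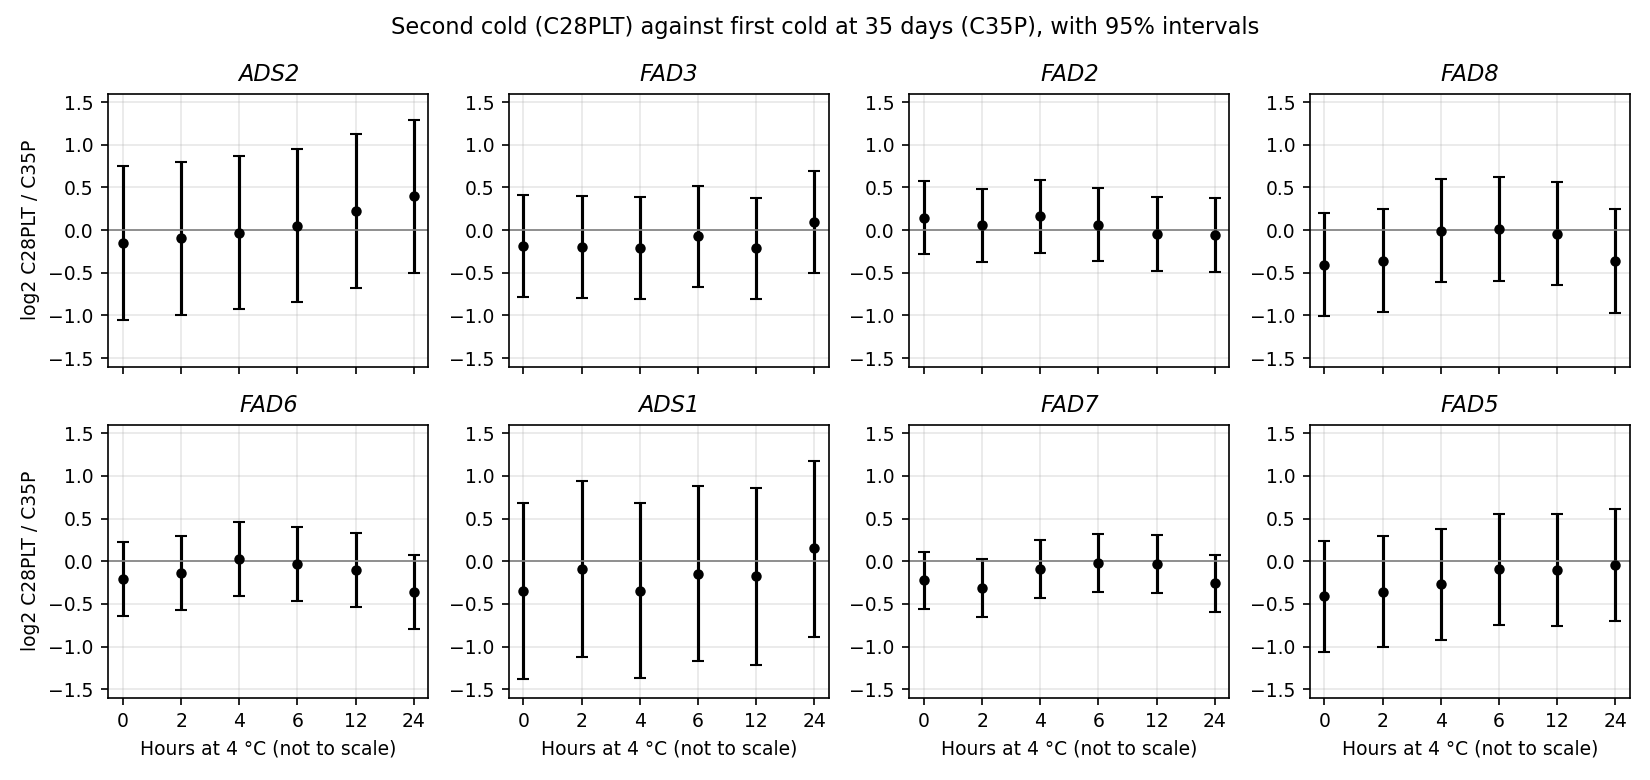
Log2 difference of C28PLT against C35P for each member, 1 panel per gene, against hours at 4 °C (not to scale), with 95% intervals as bars. The differences lie between -0.41 and 0.40 and every interval holds 0.

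Against the younger plants of C28P, 1 of 96 tests of C35P and C28PLT at equal times was called. ADS2 at 0 h was lower in C28PLT than in C28P, with a log2 difference of -2.20 (SE 0.444, adjusted p = 0.0352, 0.125% of all genes called). This call rested on the C28P 0 h library of experiment 1: without it the difference was -0.48 (adjusted p = 0.871). It was also lost without the C28PLT 0 h library of experiment 1 (-1.89, adjusted p = 0.466) or 3 (-2.15, adjusted p = 0.353). For C35P against C28P the ADS2 difference at 0 h was -2.04 (adjusted p = 0.119, 0.0241% of all genes called) and -0.32 without that library. The call was made there by leaving out the C28P 0 h library of experiment 2 (-2.48, adjusted p = 0.00281) or 3 (-2.46, adjusted p = 0.00441).

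The same library touches the responses. The response of ADS2 in C35P exceeded that in C28P by 1.93 to 2.31 on the log2 scale, and by 0.20 to 0.59 without the C28P 0 h library of experiment 1. The response in C28PLT exceeded that in C28P by 2.05 to 2.73, and by 0.33 to 1.006 without it. None of these differences was called with all libraries (lowest adjusted p 0.233). At 24 h, FAD6 and FAD7 were lower in C28PLT than in C28P by 0.48 and 0.41 on the log2 scale with unadjusted p under 0.05, and did not pass after adjustment (adjusted p = 0.367 and 0.362). Of all genes tested, 2648 (12.8%) had an unadjusted p under 0.05 in that comparison.

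The members moved together in part. Over the 54 libraries the highest correlation of log2 CPM among the 28 pairs was that of FAD6 with FAD8 (Pearson r 0.866), which was 0.883 for deviations from the group means. FAD6 and FAD7 had 0.698, ADS2 and FAD3 0.635, and FAD2 and FAD7 0.611. These libraries share conditions, times and experiments, so the values are descriptions. Libraries also differed in how a gene's deviation from its mean over all libraries followed exon length. Spearman rho of the 2 ran from -0.447 to 0.584 over the libraries. In C28PLT at 24 h it was -0.437, 0.294 and -0.399 in experiments 1, 2 and 3. Whether this adds to the correlations of members was not tested. Among all genes tested, ADS2 was most like AT4G21215 (r 0.978), AT1G56300 (0.966) and CRF4 (0.959). FAD5 was most like AT1G07450 (0.896), FAD2 like AT4G28350 (0.899), FAD3 like AT3G07320 (0.901), FAD6 like PPOX (0.935), FAD7 like SBPASE (0.882) and FAD8 like AT4G16155 (0.882). ADS1 had no near match (highest r 0.68, with AT4G24275).

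Of 56 other genes of lipid desaturation, electron supply, fatty acid synthesis and glycerolipid assembly, 53 were tested. At 24 h 2 were higher and 9 lower in C28P, 3 and 9 in C35P, and 5 and 8 in C28PLT, with a median log2 fold change of -0.286, -0.313 and -0.126, beside medians over all genes of 0.0376, 0.0513 and 0.0167. Of all genes 29.1, 28.8 and 25.9% were called at that time, and 15.3, 14 and 11.3% of all genes were called lower. Of the 10 electron donors 4 were lower in each condition, and 1 was higher in C35P and 1 in C28PLT. FD1, a leaf ferredoxin, fell from 1438 to 302 CPM in C28P, from 1267 to 279 CPM in C35P and from 1255 to 366 CPM in C28PLT, with log2 fold changes of -2.25, -2.18 and -1.78. The cytochrome b5 genes CB5-D (-1.31, -1.25 and -1.23) and CB5-B (-0.68, -1.25 and -1.07) fell as well.

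The stearoyl-ACP desaturases are the soluble plastid enzymes that make the first double bond of stearoyl chains. Among them AAD3 was higher at 24 h (1.09, 1.26 and 1.58) and AAD6 lower (-3.97, -4.44 and -4.23). AAD6 went from 6.66 to 11.03 CPM at 0 h to 0.350 to 0.702 CPM. DGAT1, the enzyme of the last step of triacylglycerol synthesis, rose from 6.82 to 27.0 CPM in C28P, from 1.66 to 25.0 CPM in C35P and from 2.52 to 29.6 CPM in C28PLT, with log2 fold changes of 1.98, 3.90 and 3.54. The C28P levels at 0 h and C28P changes of DGAT1 and the other lipid genes named include the 0 h library of experiment 1. Values without it are not given for them. Of the 9 other acyl desaturases 7 were tested, and none was called at 24 h.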

How the data were processed

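Whole rosettes in 54 libraries (18 groups of 3) were sequenced after preparation with a directional kit. The values are read counts per gene, which the authors deposited in 1 table, and no column was without a sample. Per the submitters' processing notes the tools were Trimmomatic, STAR 2.7.9a and DESeq2 and the build was TAIR10. The sources used here do not name the annotation, the strand setting or the handling of reads with several positions.

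Counts were fitted with edgeR 4.0.16 (R 4.3.3, limma 3.58.1): filterByExpr with a minimum count of 10, TMM scaling, the robust quasi-likelihood test with 1 coefficient per group over all libraries and no block, and Benjamini-Hochberg adjustment over 20720 genes. The biological coefficient of variation was 0.346. Called means an adjusted p under 0.05. CPM was computed with TMM library sizes, and levels between genes were divided by exon length. The fit gave 51 contrasts: 15 against 0 h, 18 between conditions, 15 differences of responses and 3 of 24 h against 6 h, the last added after the values were seen. Intervals are 95%. The code was tested on simulated data.

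The labels give each library's experiment, so replicate numbers pair the libraries. Libraries of the same number had a median correlation of their deviations of 0.159, against -0.0713 for different numbers. Within a condition the medians were 0.374 and -0.167, and across conditions 0.0598 for the same number. Fits with the experiment as a block, over all libraries or within each condition, were alternatives, and the calls they change are named. Within a group the counts of no pair of libraries agreed within sampling noise (lowest chi-square per degree of freedom 22.1).

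The members and the gene lists were chosen with earlier results of these data known. All 8 members are named. Of the other lipid genes, up to 3 per list and direction were named that were called at 24 h with the same sign in all 3 conditions and had the largest fold change. For each member up to 3 genes with the highest correlation were taken. Alternatives were RLE scaling, DESeq2 1.42.0, no filter, only the conditions compared, a length and GC offset, blocks, and leaving out each library. Sequences and gene positions come from RefSeq (TAIR10.1).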

Additional observations from a re-analysis of the deposited data

How the results depend on the processing

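No called value changed direction under any alternative run. The 7 calls of C28P against 0 h became 12 with the experiment as a block within each condition and 9 with 1 replicate block over all libraries. The replicate block gave 11 in C35P and 9 in C28PLT, and over the members it gained 4 calls and lost none. The block within conditions gained 10 calls and lost none. Neither block changed any other call of a member. The block within conditions called C28P at 4 h for FAD2 (0.60, adjusted p = 0.0112) and FAD3 (0.84, adjusted p = 0.0132). It also called FAD3 in C35P at 6 h (0.73, adjusted p = 0.0197) and FAD7 in C35P at 24 h against 6 h (-0.49, adjusted p = 0.0236). The other calls that each block made are given with the values of the members. In C35P against C28P at equal times, DESeq2 gave 1 call (ADS2 at 0 h, -2.02, adjusted p = 0.00622) and the length and GC offset gave 1, where the main count was 0. Both calls include the C28P 0 h library of experiment 1. Without it the edgeR difference of ADS2 was -0.32. In C28PLT against C28P the call of ADS2 at 0 h was lost (0 calls) when only the conditions compared were fitted. For the difference of the responses of C28PLT and C28P, DESeq2 made 3 calls, all of ADS2 (2.47, 2.65 and 2.72 at 6, 12 and 24 h). They include the C28P 0 h library of experiment 1 as well. Without it the edgeR differences at these times were 0.76, 0.97 and 1.006, and 0% of all genes were called. Of the other lipid genes at 24 h, the 11 calls in C28P became 17 with the block within conditions, 18 with the length and GC offset and 24 with that offset and the replicate block, and the 12 calls in C35P became 19 with the block within conditions. Over all genes, the replicate block moved the calls of C28P at 2 h from 81 to 155, a time at which it gained no member call. Counts of all genes called under these settings, against 0 h or between C28P and the other conditions, are otherwise not given. Whether the members gained more calls than genes in general was therefore not tested.

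Leaving out 1 library at a time gave 4 to 10 member calls in C28P, 7 to 11 in C35P and 7 to 10 in C28PLT against 0 h. The lowest counts came without the C28P 0 h library of experiment 2, the C35P 0 h library of experiment 3 and the C28PLT 0 h library of experiment 3. C28PLT against C35P stayed at 0, C35P against C28P gave 0 to 1 and C28PLT against C28P 0 to 1. The differences of responses gave 0 for C28PLT minus C35P, 0 for C35P minus C28P and 0 to 2 for C28PLT minus C28P. The other lipid genes gave 6 to 12 calls in C28P (lowest without the 0 h library of experiment 3), 10 to 15 in C35P and 10 to 12 in C28PLT, and 24 h against 6 h gave 6 to 8. The cause of these changes was not tested.

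ADS1 had the fewest counts (52 to 390 per library). The p-values measure the spread between pooled samples of 3 experiments.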

Other observations

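A pair of sphingolipid desaturase genes, chosen after their values were seen, had opposite signs. SLD1 rose from 243 to 870 CPM at 6 h in C35P (log2 fold change 1.84, adjusted p = 2.91e-05) and from 193 to 965 CPM in C28PLT (2.32, adjusted p = 6.89e-07). In C28P it went from 339 to 837 CPM (1.30, adjusted p = 0.00245). The C28P values of SLD1, here and at 24 h, include the 0 h library of experiment 1 and are not given without it. At 24 h SLD1 was called in C28PLT (490.4 CPM; 1.35, adjusted p = 0.0011) and had values of 0.68 in C35P (adjusted p = 0.0959) and -0.02 in C28P (adjusted p = 0.967). In the differences of responses between conditions at 24 h, edgeR called 0 genes, and so not SLD1. SLD2, at 3.64 CPM at 0 h in C35P and 2.701 CPM in C28PLT, fell by 6 h, to 1.65 CPM (-1.13, adjusted p = 0.0378) and 1.007 CPM (-1.42, adjusted p = 0.0091). In C28P it went from 3.33 to 1.77 CPM (-0.91, adjusted p = 0.1), with the 0 h library of experiment 1 included here too.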
